A study of Homo sapiens with 10 samples.

Results

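The genes described here encode the machinery of the replication fork and the factors that put chromatin back behind it: the sliding clamp PCNA and its loader, the replicative polymerases, primase, replication protein A, the enzymes that join Okazaki fragments, the activators of origins, and the histone chaperones. They form a list of 40 genes, chosen by function and with earlier results of these data known. Each was read from the probe sets that the platform annotation assigned to that gene alone. Where a gene had several, the probe set with the highest mean over all arrays stood for it. Of the 40 genes, 38 had such a probe set, out of 8226 genes named on the array. GMNN, the geminin gene, and SUPT16H, a subunit of the histone chaperone FACT, had none, so their expression was not analysed here.

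The samples were ST486 cells, a human Burkitt's lymphoma line, 60 h after lentiviral transduction. The treated group received an shRNA against STK38 (Sigma TRCN0000010215), and the control group received a non-target shRNA (Sigma SHC002). Each group had 5 arrays of the 1-colour Affymetrix HG-U95Av2 type. STK38 encodes a serine/threonine kinase also called NDR1, and by its title the series concerns the link of this kinase to MYC, the transcription factor whose gene is translocated in Burkitt's lymphoma. Since a single STK38 hairpin was used, its effects on other transcripts and the effects of STK38 cannot be told apart. The labels do not say that replicates were separate cultures, so p-values measure array-to-array spread only, and that spread may be technical.

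DNA replication begins when origins bound by the origin recognition complex and loaded with helicase are fired by the CDC7-DBF4 kinase and by cyclin-dependent kinases. Polymerase alpha-primase then lays down primers, the RFC complex loads the PCNA ring, polymerases epsilon and delta extend the leading and lagging strands, and FEN1 and DNA ligase I process and join Okazaki fragments. CAF-1 and other chaperones deposit histones on the new DNA, and DNMT1 copies its methylation. Many of these genes are transcribed as cells enter S phase, under E2F factors, and Burkitt's lymphoma cells divide fast. In bulk RNA, fewer cells expressing a gene and less RNA of it per cell cannot be told apart.

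STK38 itself was lower in the treated arrays. The brightest STK38 probe set was at 2.83 ± 0.21 in the STK38 shRNA arrays and 5.02 ± 0.22 in the non-target arrays (log2, SD, n = 5 each), and the brightest MYC probe set at 7.30 ± 0.34 and 8.68 ± 0.25. The STK38 log2 difference was -2.19 at its brightest probe set and smaller, -1.16 and -0.82, at the others. Of 6 B lymphocyte markers measured, 5 stood above the array background on all 10 arrays. Of the other cell types' markers, 1 of 7 epithelial markers stood above it on all 10 arrays, and none of 8 T cell, 6 monocyte, 7 fibroblast and endothelial or 2 erythroid markers did. The mean of the 8 T cell markers was 1.76 to 1.86 in STK38 shRNA arrays and 1.97 to 2.04 in non-target arrays. Of the 8, 6 were above background on no array, so no change is read for them. The 2 that passed the filter on low values were both called lower. LCK, a kinase that B cell lines can also express, had a log2 difference of -1.22. CD247 exceeded the background on 0 STK38 shRNA arrays and 1 non-target array, so no size is given for it. The part of LCK and CD247 in the results was not tested. The background, set from control probe sets, was between 2.36 and 2.66 on the arrays. STK38 shRNA replicate 4 stood apart: its mean correlation with its own group was 0.978, where the other 4 arrays of the group had 0.991, its 75th percentile was 3.53 against 3.93 to 4.01 in those 4, and it had the highest mean of the monocyte (2.21), epithelial (2.44) and fibroblast and endothelial (2.05) marker lists. The part of those markers in the results was not tested. It was the lowest array of its group at 52.6% of the fork genes and at 48.6% of all probe sets tested. Results are therefore given with and without it where it mattered.

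Most of the fork genes fell with the STK38 shRNA. Of the 38 genes measured, all passed the filter on low values, 27 fell and 0 rose, and 11 did not pass the test. In limma with Benjamini-Hochberg adjustment over 7535 probe sets, 15.8% of all probe sets fell and 14.1% rose (29.9% in either direction), while 71.1% of the fork genes fell. The median log2 difference was -0.48 over the 38 genes and 0.02 over all probe sets tested. At 23 of the 38 genes (60.5%), the highest STK38 shRNA array lay below the lowest non-target array, as at 12.8% of all probe sets tested. All 23 were among the 27 that fell. Over all probe sets, 964 had the groups apart in this direction, where 1192 were called lower. RPA2 was the 1 gene with the groups apart in the other direction, as at 9.33% of all probe sets. Of the falls, 2 were of at least 2-fold (PRIM1 and POLA1), 12 of 1.5-fold to 2-fold and 11 under 1.5-fold, and the other 2, POLE2 and CHAF1B, have only a lower bound. Without STK38 shRNA replicate 4, 1 fall, that of PRIM1, was of at least 2-fold. Without STK38 shRNA replicate 4, 28 fell and 1 rose, with a median of -0.40, beside 16.8% of all probe sets lower and 20.5% higher.

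**Figure D1:**
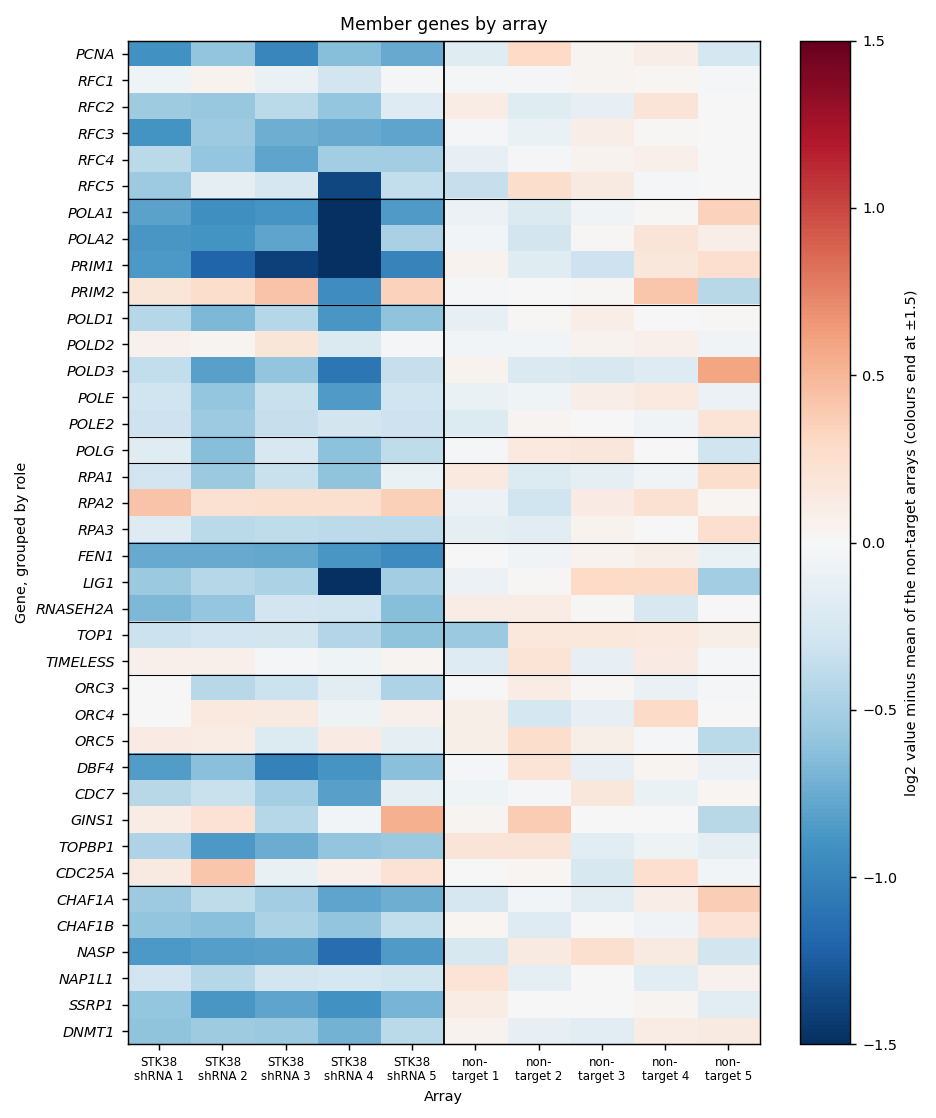
log2 value of each of the 38 genes on each array minus the mean of the 5 non-target arrays, with the STK38 shRNA arrays left of the line and the non-target arrays right of it; horizontal lines separate roles. Blue fills most of the left side, with POLA1, POLA2, PRIM1, RFC5 and LIG1 among the darkest cells on STK38 shRNA replicate 4, while PRIM2, POLD2, RPA2, TIMELESS, ORC4, ORC5, GINS1 and CDC25A stay pale or red on most STK38 shRNA arrays.

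The treated arrays resembled each other in this. The median deviation of the 38 genes from the non-target mean was -0.41, -0.54, -0.42, -0.61 and -0.39 on STK38 shRNA replicates 1 to 5, and between -0.03 and 0.04 on the non-target arrays. On each STK38 shRNA array 26 to 31 of the 38 genes lay below every non-target array. This count follows in part from the calls, which used the same arrays, and it was not made over all probe sets. The median SD within a group was 0.17 in both groups, and 0.14 in the STK38 shRNA group without replicate 4.

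Promoters were read for what these genes share apart from their products. RefSeq promoter windows (GRCh38.p14, 250 bases before to 50 after the annotated start) were matched by symbol for 37 of the 40 genes, 43 windows in all, with RPA2, RPA3 and POLD3 unmatched. An E2F motif, searched on both strands as TTTCCCGC, TTTGGCGC, TTTCGCGC or TTTGCCGC, was in 14 of the 43 windows (32.6%) and in 3.31% of all 35116 windows. The E-box CACGTG, the site bound by MYC with MAX, was in 7 of 43 (16.3%) and in 7.26% of all windows. The CCAAT box, searched as CCAAT, was in 44.2% and 34.6%, and TTTGAA, an element of mitotic gene promoters, in 2.33% and 15.2%. Of the genes with a probe set and a window, the E2F motif was in 10 of 25 that fell and in 3 of 10 that did not pass the test, and the E-box in 3 of 25 and 2 of 10. A match is a description of the letters and shows no binding.

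The 100 bases before the start are shown for 5 genes with an E2F motif close to the start, namely PCNA, RFC3, POLA2 and POLE, all of which fell, and CDC25A, which did not, and for FEN1 and CHAF1A, which fell and hold an E-box. Capitals mark the E2F motif in the first 5 and CACGTG in FEN1 and CHAF1A. All run 5′ to 3′ on the strand of the gene. In PCNA, RFC3 and POLE the motif lies on the opposite strand, so its reverse complement is in capitals.
PCNA, chr20:5126623-5126722, minus strand: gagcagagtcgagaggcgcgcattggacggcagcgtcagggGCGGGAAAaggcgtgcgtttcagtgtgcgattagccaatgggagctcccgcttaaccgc
RFC3, chr13:33818049-33818148, plus strand: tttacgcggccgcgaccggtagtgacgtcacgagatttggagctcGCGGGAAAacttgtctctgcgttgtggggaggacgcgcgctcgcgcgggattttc
POLA2, chr11:65261862-65261961, plus strand: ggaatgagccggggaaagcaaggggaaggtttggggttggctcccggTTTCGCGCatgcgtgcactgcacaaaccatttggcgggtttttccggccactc
POLE, chr12:132687343-132687442, minus strand: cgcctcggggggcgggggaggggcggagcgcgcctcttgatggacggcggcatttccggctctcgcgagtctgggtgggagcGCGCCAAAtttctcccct
CDC25A, chr3:48188418-48188517, minus strand: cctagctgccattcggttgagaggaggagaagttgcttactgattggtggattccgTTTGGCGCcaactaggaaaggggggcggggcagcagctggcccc
FEN1, chr11:61792811-61792910, plus strand: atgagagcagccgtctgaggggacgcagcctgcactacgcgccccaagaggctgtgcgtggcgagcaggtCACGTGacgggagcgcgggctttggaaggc
CHAF1A, chr19:4402540-4402639, plus strand: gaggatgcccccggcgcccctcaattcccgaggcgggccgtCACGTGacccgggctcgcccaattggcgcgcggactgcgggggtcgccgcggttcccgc
In PCNA, RFC3 and POLA2 the motif began at positions -59, -55 and -53 from the start. The E2F motif of POLE began at -18 and that of CDC25A at -44.

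**Figure D2:**
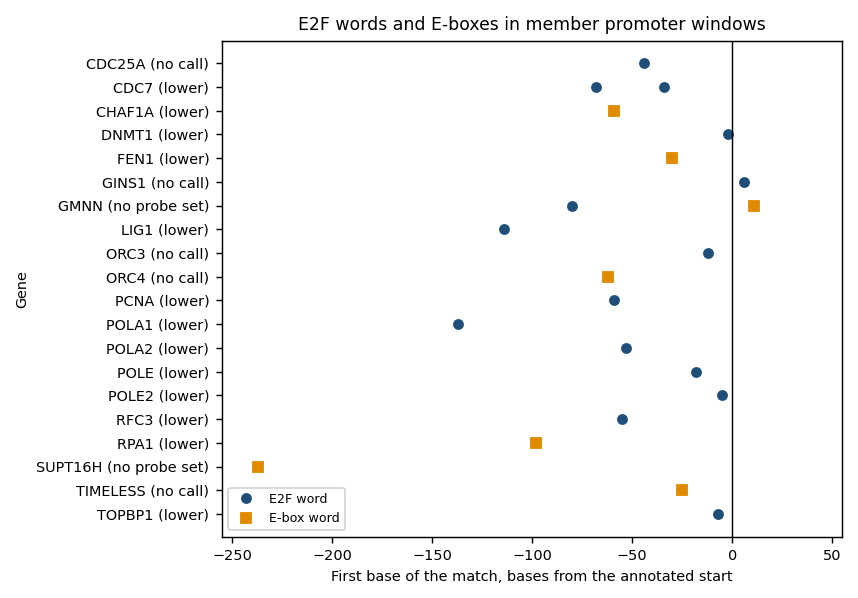
First base of each E2F motif (circles) and E-box (squares) in bases from the annotated start, one row per gene, for the fork genes that hold either; the label says whether the gene fell, had no call or had no probe set. The E2F motifs begin between -137 and 6 bases from the start, in genes with and without a call.

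PCNA, the ring that tethers polymerases to DNA, fell 1.71-fold. It was at 8.10, 8.42, 8.03, 8.37 and 8.25 in the STK38 shRNA arrays, and at 8.82, 9.31, 9.05, 9.11 and 8.74 in the non-target arrays (log2; difference -0.77, SE 0.11, limma adjusted p = 7.46e-05). The groups did not overlap. Its other probe set had a larger difference of -1.43 (SE 0.11, adjusted p = 3.70e-07), so the direction was shared and the size was not. Both PCNA probe sets are of the type that Affymetrix marks as able to bind more than a single transcript, as are those of POLD1 and TOP1.

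The clamp loader RFC opens the ring and closes it around the primer end. RFC3, a small subunit, was at 5.58, 5.93, 5.74, 5.72 and 5.68 in the STK38 shRNA arrays and at 6.45, 6.38, 6.57, 6.49 and 6.48 in the non-target arrays, a 1.67-fold fall (log2 difference -0.74, SE 0.094, adjusted p = 3.08e-05). RFC4 fell 1.48-fold (adjusted p = 1.04e-04), with -0.56 and -0.57 at its 2 probe sets, and RFC2 1.37-fold (adjusted p = 0.00501). These are 3 of the small subunits, and none of the 3 overlapped between groups. RFC5, the remaining small subunit, was at 4.81 ± 0.49 in STK38 shRNA arrays and 5.34 ± 0.23 in non-target arrays and did not pass the test (difference -0.53, 95% interval -0.96 to -0.10, adjusted p = 0.0598). STK38 shRNA replicate 4 was at 3.98 there, and without that array the RFC5 difference was -0.32 (adjusted p = 0.0570). RFC5 was called lower under 8 of 19 alternatives, and its other probe sets had -0.48 and 0.08. RFC1, the large subunit, did not exceed the background on any array, so no level is given for it.

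Of the 4 genes of polymerase alpha-primase, which makes the RNA-DNA primer of each strand, 3 fell. PRIM1, the catalytic primase subunit, was at 4.17, 3.83, 3.63, 2.84 and 4.02 in the STK38 shRNA arrays and at 5.08, 4.85, 4.72, 5.20 and 5.28 in the non-target arrays. The groups did not overlap, and the fall was 2.51-fold (log2 difference -1.33, SE 0.21, adjusted p = 2.45e-04). POLA1, the catalytic polymerase subunit, was at 3.37, 3.26, 3.29, 1.83 and 3.33 in the STK38 shRNA arrays and at 4.09, 3.96, 4.12, 4.19 and 4.52 in the non-target arrays. The value of 1.83 on replicate 4 was below that array's background and well below the other 4. With all arrays POLA1 fell 2.23-fold (difference -1.16, SE 0.25, adjusted p = 0.00263), and without replicate 4 its difference was -0.86 (SE 0.12, adjusted p = 2.00e-05). POLA2, the regulatory subunit, fell 1.92-fold (difference -0.94, SE 0.18, adjusted p = 0.00116), and by 0.76 on the log2 scale without that array.

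PRIM2, the other primase subunit, did not pass the test. It was at 3.31, 3.39, 3.56, 2.20 and 3.48 in the STK38 shRNA arrays and at 3.10, 3.14, 3.15, 3.55 and 2.71 in the non-target arrays, so the groups overlapped. Its difference was 0.06 (95% interval -0.43 to 0.55, adjusted p = 0.896), and 0.30 without STK38 shRNA replicate 4 (adjusted p = 0.0921). The value of 2.20 on replicate 4 was below that array's background of 2.65. The other PRIM2 probe set, dimmer still, had -0.07 (adjusted p = 0.792). PRIM2, at 3.13 ± 0.30 in the non-target arrays, lay near the background of 2.36 to 2.66 and had little room to show a fall. The change of PRIM1 relative to PRIM2 within an array was -1.39 (SE 0.22) with a two-sided exact permutation p = 0.00794, the smallest that 5 against 5 arrays can give.

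That comparison was 1 of 28 made between the subunits of a complex, chosen after the values were seen. The log2 difference between 2 subunits on each array was compared between the groups by a two-sided exact permutation test, adjusted over the 28. It asks whether the subunits changed unequally. The smallest exact p of 0.00794, adjusted to 0.0247, was reached by 9 pairs. PRIM2 differed in its change from PRIM1, POLA1 and POLA2, POLD2 from POLD1 and POLD3, and RPA2 from RPA1 and RPA3. The PRIM2 pairs are limited by the nearness of PRIM2 to the background. The remaining 2 pairs set RFC1, which was at background, against RFC3 and RFC4. Without STK38 shRNA replicate 4, 9 pairs passed as well, narrowly, at an adjusted exact permutation p of 0.0494. All 9 stood at an exact permutation p of 0.0159, the smallest that 4 against 5 arrays can give. Their adjusted value therefore rests on how many pairs tie there, and the 2 pairs with RFC1, at background, are among them. Among the pairs that did not pass were PRIM1 and POLA1, at a relative change of 0.17 for POLA1 over PRIM1 (SE 0.13, adjusted exact permutation p = 0.374).

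**Figure D3:**
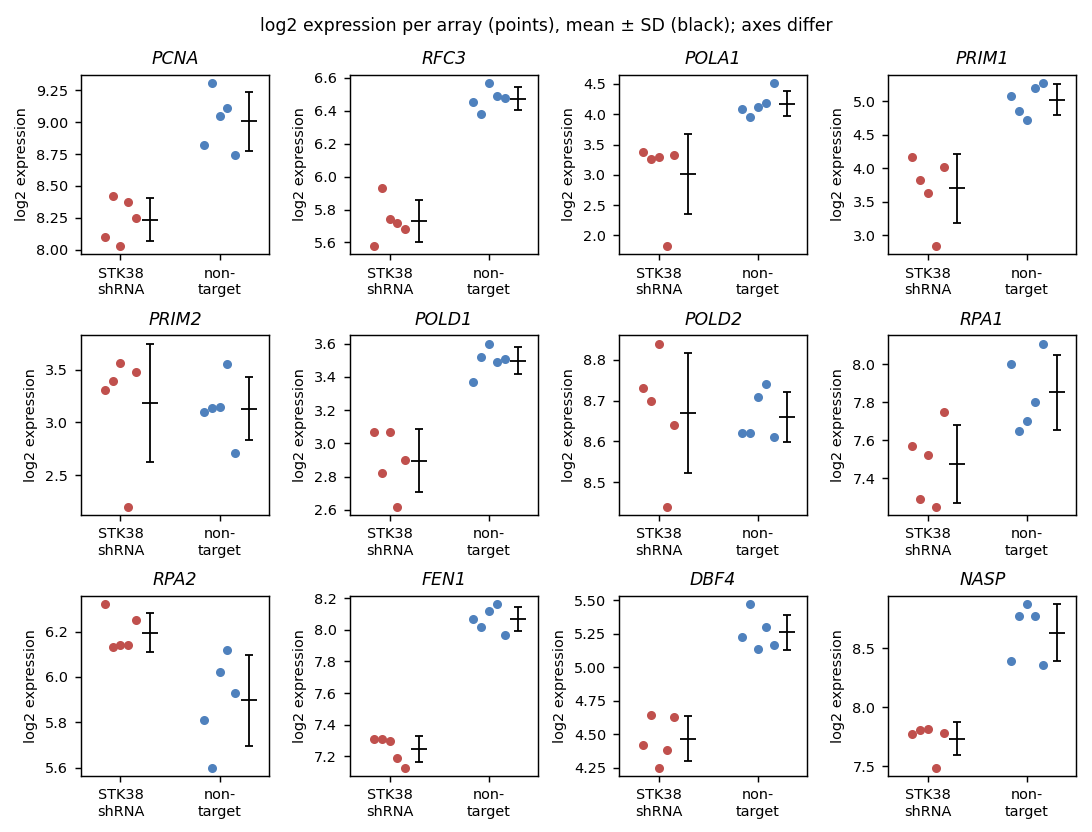
log2 expression of 12 fork genes on each array (points), STK38 shRNA left and non-target right, with the mean ± SD of each group (n = 5) in black; vertical axes differ between panels. The groups are apart for PCNA, RFC3, POLA1, PRIM1, POLD1, FEN1, DBF4 and NASP, overlap for PRIM2, POLD2 and RPA1, and are apart the other way for RPA2.

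Of the polymerase delta genes on the list, 2 of 3 fell. POLD1, the catalytic subunit of polymerase delta, was at 3.07, 2.82, 3.07, 2.62 and 2.90 in the STK38 shRNA arrays and at 3.37, 3.52, 3.60, 3.49 and 3.51 in the non-target arrays. It fell 1.52-fold (difference -0.60, SE 0.12, adjusted p = 0.00116) and exceeded the array background on 4 of 5 treated arrays. POLD3, an accessory subunit, fell 1.56-fold (adjusted p = 0.0163). POLD2, the small structural subunit, was among the brightest fork genes and hardly differed: it was at 8.73, 8.70, 8.84, 8.44 and 8.64 in the STK38 shRNA arrays and at 8.62, 8.62, 8.71, 8.74 and 8.61 in the non-target arrays. Its difference of 0.01 had a 95% interval of -0.15 to 0.17. POLD4, a further subunit that was not on the list, had 0.28 (adjusted p = 0.114), and 0.36 without STK38 shRNA replicate 4 (adjusted p = 0.0186). The relative change of POLD1 to POLD2 was -0.61 (SE 0.051, exact permutation p = 0.00794).

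Of polymerase epsilon, the leading-strand enzyme, both genes on the list fell, at low signal. POLE3, a brighter accessory subunit that was not on the list, fell 1.30-fold as well (adjusted p = 0.0114), at 7.47 ± 0.13 in STK38 shRNA arrays and 7.85 ± 0.21 in non-target arrays. POLE, the catalytic subunit, fell 1.39-fold at its brightest probe set (difference -0.47, SE 0.13, adjusted p = 0.0110), where 4 of 5 treated arrays exceeded the background. Its dimmer probe set that was tested had -0.17 (adjusted p = 0.296), and the remaining probe set did not pass the filter on low values. POLE2 exceeded the background on 0 STK38 shRNA and 4 non-target arrays and was at least 1.13-fold lower (adjusted p = 0.0114), a bound set by the background. Its call was lost with arrays centred on their 75th percentile (adjusted p = 0.109). POLG, the catalytic subunit of the mitochondrial polymerase, works away from the nuclear fork. It was at 4.78 ± 0.21 in STK38 shRNA arrays and 5.19 ± 0.19 in non-target arrays (SD, n = 5 each), a 1.33-fold fall with overlapping groups (adjusted p = 0.0279). That call was lost after quantile normalization and when STK38 shRNA replicate 2 or any of non-target replicates 1 to 4 was left out, with adjusted p up to 0.0764 over all alternatives.

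Replication protein A coats the single-stranded DNA of the fork as a trimer, and 2 of its 3 subunits fell. RPA1, the large DNA-binding subunit, fell 1.30-fold (difference -0.38, SE 0.11, adjusted p = 0.0212), with -0.32 at its other probe set. The RPA1 call at the brighter probe set was lost without STK38 shRNA replicate 2 or non-target replicate 1 or 5, with adjusted p up to 0.0594 over all alternatives. RPA3, the smallest subunit, fell 1.28-fold (adjusted p = 0.00611), with -0.35 and -0.63 at its 2 probe sets, and its call at the brighter was lost with arrays centred on their 75th percentile (adjusted p = 0.0606). RPA2, the subunit phosphorylated on DNA damage, was at 6.32, 6.13, 6.14, 6.14 and 6.25 in the STK38 shRNA arrays and at 5.81, 5.60, 6.02, 6.12 and 5.93 in the non-target arrays. All 5 STK38 shRNA arrays were above all 5 non-target arrays, though the lowest of the treated arrays was only just above the highest control. The difference of 0.30 (SE 0.11) stood at the threshold, with an adjusted p of 0.0506 over all arrays and 0.0330 without STK38 shRNA replicate 4. The relative change of RPA2 to RPA3 was 0.65 (SE 0.079, exact permutation p = 0.00794). A second RPA2 probe set was at background on all arrays.

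All 3 genes of Okazaki fragment processing fell. FEN1, the flap endonuclease that trims the displaced primer, was at 7.31, 7.31, 7.30, 7.19 and 7.13 in the STK38 shRNA arrays and at 8.07, 8.02, 8.12, 8.16 and 7.97 in the non-target arrays. It had the smallest p of the fork genes at their main probe sets (1.76-fold lower, difference -0.81, SE 0.074, adjusted p = 1.35e-06), and its other probe sets had -0.69 and -0.68. RNASEH2A, the catalytic subunit of the ribonuclease that removes RNA from DNA, fell 1.41-fold (adjusted p = 0.00288). LIG1, the ligase that seals the fragments, was at 3.04, 3.17, 3.13, 2.08 and 3.08 in the STK38 shRNA arrays and at 3.51, 3.62, 3.90, 3.89 and 3.08 in the non-target arrays. The groups overlapped through non-target replicate 5, and the value of 2.08 was below background. LIG1 fell 1.62-fold (difference -0.70, SE 0.21, adjusted p = 0.0212), and by 0.49 on the log2 scale without STK38 shRNA replicate 4 (adjusted p = 0.0125). Its call was lost without non-target replicate 3 or 4, with adjusted p up to 0.0595 over all alternatives.

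TOP1, the topoisomerase that relaxes supercoils ahead of the fork, was at 6.58 ± 0.13 in STK38 shRNA arrays and 6.97 ± 0.31 in non-target arrays (1.31-fold lower, adjusted p = 0.0428). Non-target replicate 1, at 6.41, lay far below the other 4 control arrays, at 7.06 to 7.13, and inside the treated range. The TOP1 call was lost under 13 of 19 alternatives, with adjusted p up to 0.108. Its dimmer probe set had a larger difference, -0.85 (SE 0.13, adjusted p = 1.79e-04), with groups that did not overlap. TIMELESS, a fork protection factor, was at 3.86 ± 0.067 and 3.84 ± 0.17, with a difference of 0.02 (95% interval -0.23 to 0.27).

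The origin recognition complex marks the sites where replication can start. Of its 3 subunits on the list, 0 passed the test in limma (1, ORC3, had an unadjusted p under 0.05). ORC3 had -0.28 (SE 0.12, adjusted p = 0.0995, and 0.0440 without STK38 shRNA replicate 4), ORC4 0.06 (95% interval -0.18 to 0.29) and ORC5 an interval of -0.30 to 0.30. ORC4 exceeded the background on 4 STK38 shRNA and 2 non-target arrays. The other 2 subunits measured, counted here among the licensing genes, both passed the test. ORC2 fell 1.72-fold without overlap (difference -0.78, SE 0.15, adjusted p = 0.00131), and ORC1 was called lower (adjusted p = 0.0173) but exceeded the background on 0 arrays, so no level is given for it.

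Of 5 genes of origin firing, 3 fell. DBF4, the activating subunit of the CDC7 kinase, was at 4.42, 4.64, 4.25, 4.38 and 4.63 in the STK38 shRNA arrays and at 5.23, 5.47, 5.14, 5.30 and 5.17 in the non-target arrays. The groups were well apart, and DBF4 fell 1.74-fold (difference -0.80, SE 0.12, adjusted p = 1.23e-04). CDC7, the kinase itself, fell 1.36-fold (adjusted p = 0.0202), a call lost without non-target replicate 3 (highest adjusted p over all alternatives 0.0575). TOPBP1, a scaffold for firing and for ATR activation, fell 1.56-fold (difference -0.64, SE 0.12, adjusted p = 8.83e-04). GINS1, a subunit of the GINS complex of the active helicase, had 0.08 (95% interval -0.29 to 0.45, adjusted p = 0.804). CDC25A, the phosphatase that activates cyclin-dependent kinases at the start of S phase, had 0.15 (95% interval -0.13 to 0.42, adjusted p = 0.461), and -0.11 at its other probe set, which was also not past the threshold.

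All 6 genes of histone chaperones and chromatin measured fell, and at none of them did the groups overlap. NASP, a chaperone of histones H3 and H1, was at 7.77, 7.81, 7.82, 7.49 and 7.78 in the STK38 shRNA arrays and at 8.39, 8.77, 8.87, 8.77 and 8.36 in the non-target arrays. It fell 1.86-fold (difference -0.90, SE 0.11, adjusted p = 1.98e-05). SSRP1, a subunit of FACT, which moves nucleosomes out of the way of polymerases, was at 7.05, 6.76, 6.84, 6.72 and 6.94 in the STK38 shRNA arrays and at 7.74, 7.63, 7.64, 7.68 and 7.48 in the non-target arrays. It fell 1.71-fold (difference -0.77, SE 0.088, adjusted p = 1.11e-05).

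CAF-1 brings H3 and H4 to PCNA at the fork. CHAF1A, its large subunit, was at 5.19 ± 0.17 in STK38 shRNA arrays and 5.79 ± 0.24 in non-target arrays (SD, n = 5 each), 1.51-fold lower (adjusted p = 0.00304). CHAF1B, its middle subunit, exceeded the background on 0 STK38 shRNA and 4 non-target arrays and was at least 1.19-fold lower (adjusted p = 6.57e-04). DNMT1, the maintenance DNA methyltransferase, fell 1.47-fold (difference -0.56, SE 0.11, adjusted p = 9.44e-04). NAP1L1, a chaperone of H2A and H2B, was the brightest of the fork genes, with a small fall of 1.24-fold (difference -0.31, SE 0.069, adjusted p = 0.00317) and -0.50 at its other probe set. With arrays centred on their 75th percentile the call at the brighter was lost (adjusted p = 0.118).

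**Figure D4:**
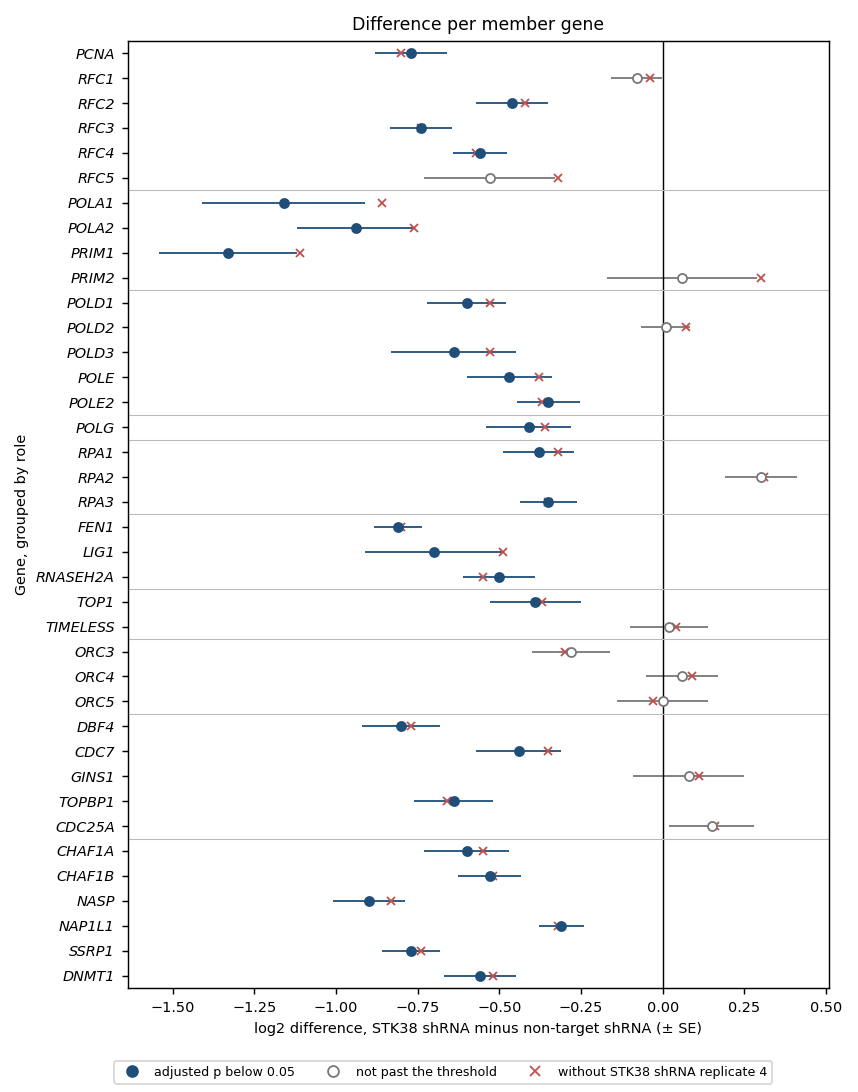
log2 difference of the 38 genes, STK38 shRNA minus non-target shRNA, with SE bars (filled, past the threshold; open, not past it), and crosses for the difference without STK38 shRNA replicate 4. PRIM1 at -1.33 is the farthest left and RPA2 at 0.30 the farthest right, and the crosses of POLA1, PRIM1, PRIM2, RFC5 and LIG1 lie to the right of their points.

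Second probe sets gave a further reading of the same RNA on the same arrays, so they are not an independent check. Of the 38 genes, 12 had more than 1 probe set, and of their 15 other probe sets 14 were tested. Of the 14, 8 fell and 0 rose, beside 15.8% and 14.1% of all probe sets tested. Those 8 belonged to PCNA, RFC4, RPA1, RPA3, FEN1 with 2, TOP1 and NAP1L1, all of which also fell at the brightest probe set. POLE fell at the brightest of its probe sets alone. The signed log2 difference had a Pearson correlation of -0.11 with the log2 level over the 38 genes, which share their arrays.

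Related gene lists, compiled by hand, give the setting, to be read beside 15.8% of all probe sets that fell and 14.1% that rose. Of 11 licensing genes, which load the helicase at origins, 10 fell and 0 rose, with a median of -0.98: MCM6, a helicase subunit, was at 6.35 ± 0.24 in STK38 shRNA arrays and 8.24 ± 0.096 in non-target arrays, 3.71-fold lower. Of 12 deoxynucleotide supply genes, 7 fell and 1, DCTD, rose, with a median of -0.51: DUT, which removes dUTP, was at 8.59 ± 0.17 in STK38 shRNA arrays and 9.71 ± 0.17 in non-target arrays. The repair and checkpoint list had 8 of 27 lower (29.6%) and 0 higher, with a median of -0.15. The mitosis list had 7 of 27 lower (25.9%) and 4 higher, with a median of -0.14. Whether the fork genes differ from any of these lists was not tested.

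A list of other fork and assembly genes, which held none of the 38, was mixed. Of its 20 genes tested, 7 fell (35.0%) and 2 rose, with a median of -0.17, beside 15.8% and 14.1% of all probe sets. CDC45, the partner of GINS and MCM in the active helicase, was at 3.27 ± 0.28 in STK38 shRNA arrays and 4.57 ± 0.17 in non-target arrays, 2.46-fold lower (adjusted p = 1.17e-05). RNASEH2B, a partner of RNASEH2A, fell 2.33-fold (adjusted p = 3.16e-04). The 2 that rose, named after their values were seen, were POLB, the repair polymerase beta, 1.35-fold higher (adjusted p = 0.0316), and RBBP4, the small subunit of CAF-1, 1.27-fold higher (adjusted p = 0.00539). RBBP4, which also serves other chromatin complexes, was at 8.17 ± 0.026 in STK38 shRNA arrays and 7.82 ± 0.17 in non-target arrays, without overlap, where CHAF1A and CHAF1B fell.

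**Figure D5:**
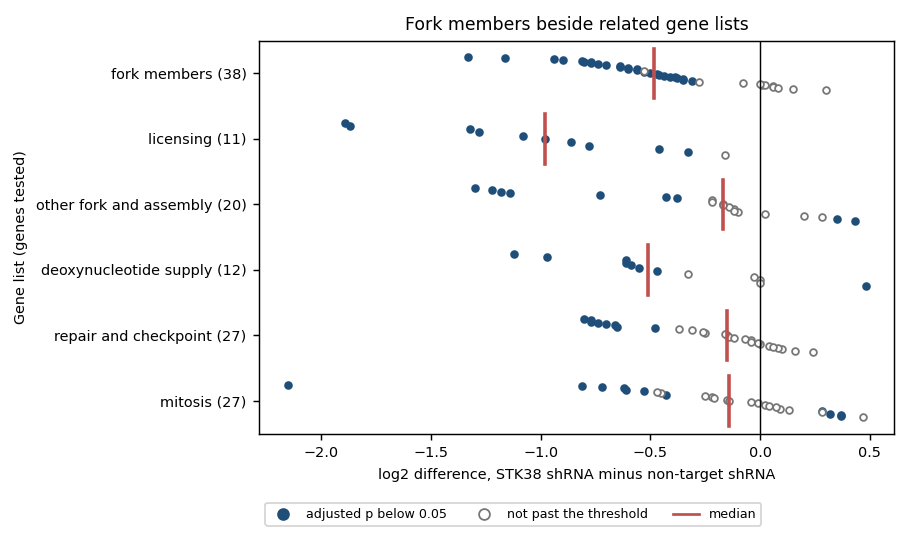
log2 difference of each gene tested, STK38 shRNA minus non-target shRNA, for the 38 fork genes and 5 related lists (filled, past the threshold; open, not past it), with the median of each list as a bar. The licensing genes have the lowest median, -0.98, the fork genes -0.48 and the deoxynucleotide supply genes -0.51, and the medians of the other 3 lists lie between -0.17 and -0.14.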

How the data were processed

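Per the labels, biotin-labelled total RNA of ST486 cells was read on Affymetrix HG-U95Av2 arrays in 1 colour. The deposited log2 values cover 12625 probe sets on 10 arrays and were made by the authors with GCRMA and affy, per the submitters' processing notes, with no version given. GCRMA corrects the background, normalizes across arrays and summarises each probe set, and it pulls dim probe sets towards a floor. No scale is stated; log2 was inferred from the range of 0.35 to 12.65 and from GCRMA, and scanner files were not used here. Gene names came from the platform annotation, and RefSeq (GRCh38.p14) gave current symbols by Entrez identifier; 10943 probe sets had 1 gene, 545 several and 1070 none.

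Probe sets whose 10-array mean fell below the 40th percentile (1.93) and 67 control probe sets were left out. The remaining 7535 were tested in R 4.3.3 with limma 3.58.1 (lmFit, eBayes with trend, no covariate), two-sided, calling at a Benjamini-Hochberg adjusted p under 0.05. This limma fit was tested on simulated data and gave each adjusted p printed for a gene. A fold is the linear ratio of a log2 difference, and intervals are 95%. Array background was the 90th percentile of 23 reverse-strand, mouse and yeast control probe sets; a gene above it on no array of a group has only a bound. Exact permutation tests used scipy 1.17.1. The number of arrays limits the precision. Every gene of the list was accounted for, and up to 3 genes of each related list were to be named by size; the genes, lists and tests were chosen with earlier results of these data known. Alternatives covered array scaling, array weights, filter, variance model, threshold, probe set choice, a replicate block, the control probe sets and leaving out each array. Protein sequences were not used here.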

Additional observations from a re-analysis of the deposited data

Results flagged for a closer look

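In 8 of 76 groups of 5 arrays, 2 for each of the 38 fork genes, the lowest or highest array lay apart from the rest, with a gap over 0.71 of the group's range (Dixon's critical value for 5 values). Chance flags about 1 in 20 groups. Of the 8, 4 were low values on STK38 shRNA replicate 4. POLA1 was at 1.83 there, where the other 4 arrays had 3.26 to 3.37 (ratio 0.929), and LIG1 at 2.08, where they had 3.04 to 3.17 (ratio 0.884). PRIM2 was at 2.20 against 3.31 to 3.56 (ratio 0.819) and NASP at 7.49 against 7.77 to 7.82 (ratio 0.850). The other low values in the STK38 shRNA group were on replicate 2, POLE2 at 2.09 against 2.29 to 2.35 (ratio 0.761) and NAP1L1 at 9.48 against 9.61 to 9.65 (ratio 0.713). RPA3 was high on STK38 shRNA replicate 1, at 7.92 against 7.71 to 7.74 (ratio 0.833). In the non-target group TOP1 was low on replicate 1, at 6.41 against 7.06 to 7.13 (ratio 0.897). Of these genes, all but PRIM2 were called lower with all arrays, and without STK38 shRNA replicate 4 none of the 27 calls was lost and 2, RPA2 and ORC3, were gained.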

How the results depend on the processing

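The 27 falls became 23 to 28 with single arrays left out, 1947 to 2817 probe sets were called, 0 or 1 fork genes rose, and the median log2 difference ran from -0.52 to -0.40. Of the 27 genes, 19 passed the threshold in the same direction under every alternative they could be tested in, and none changed direction past it. RPA2 was the 1 gene called higher with arrays centred on their 75th percentile, after quantile normalization, with the 60th percentile filter, without the variance trend, with array weights and without STK38 shRNA replicate 4 or non-target replicate 4. At an adjusted p under 0.01, 19 fork genes fell and 1494 probe sets were called. These are not the same 19 genes: RPA3 and NAP1L1 are among them, and POLD3 and POLE are not. Array weights gave 29 falls, and centring on the 75th percentile gave 23. Besides TOP1, calls were lost there for POLE2, RPA1, RPA3 and NAP1L1 (adjusted p up to 0.118), and that scaling moved the median of all probe sets to 0.07. The cause was not tested.

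The labels do not say whether equal replicate numbers mark arrays handled together, and correlations over so few arrays cannot settle it. Deviations from the group means of same-numbered arrays correlated at -0.21 to 0.19, and with the replicate block 28 fork genes fell, with a median of -0.48, and 2159 probe sets were called. Without the ACTB and GAPDH reverse-strand probe sets the background was 1.89 to 2.18, and 33 of the 38 genes stood above it on all arrays, where 28 did with them. Dim genes such as RFC1, POLE2 and CHAF1B are limited by that background.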

Other observations

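Mitochondrial DNA has its own replication machinery. Besides POLG, 3 of its genes are given here, singled out after their values were seen, and the set is not complete. SSBP1, the mitochondrial single-stranded DNA-binding protein, was at 8.39 ± 0.11 in STK38 shRNA arrays and 9.57 ± 0.29 in non-target arrays (log2, SD, n = 5 each), 2.27-fold lower without overlap (limma adjusted p = 2.24e-06). TFAM, which packages mitochondrial DNA, had a log2 difference of -0.12 (SE 0.14, adjusted p = 0.597), and POLRMT, the mitochondrial RNA polymerase that also primes replication, of -0.17 (SE 0.15, adjusted p = 0.446).

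The topoisomerase II genes, which untangle replicated DNA, both fell, and were also named after their values were seen. TOP2A was at 6.77 ± 0.24 in STK38 shRNA arrays and 7.91 ± 0.18 in non-target arrays (2.20-fold lower), and TOP2B at 8.46 ± 0.10 and 9.18 ± 0.08 (1.65-fold lower). TOP3A had -0.10 (SE 0.11, adjusted p = 0.562).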
